A study of Mus musculus with 12 samples.

Results

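Kap, Odc1 and 4 hormone receptor genes were examined in whole mouse kidney as a set of transcripts that report on hormone signalling. The set was listed as 7 genes: Kap, Odc1, Esr1, Nr3c1, Nr3c2, Prlr and Ghr. Kap was chosen by its measured fall in mutant kidneys on these same arrays, and the other genes were listed with results of these arrays in view. Each gene was read from the probe set that the array annotation ties to its symbol alone, taking the probe set with the highest mean over the 12 arrays. In this way 6 of the 7 genes were found among 19934 genes tested, and Prlr, the prolactin receptor gene, is not analysed here.

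Kap encodes kidney androgen-regulated protein, a small secreted protein made by proximal tubule cells of the mouse, and its transcript is among the most abundant of that organ. In mice androgens raise it in the cortical proximal tubule, while in the straight (S3) segment it also depends on oestrogen, thyroid hormone and pituitary hormones. Odc1 encodes ornithine decarboxylase, the enzyme that commits ornithine to polyamine synthesis and a classical androgen-induced enzyme of mouse kidney. Steroid receptors such as those encoded by Esr1, Nr3c1 and Nr3c2 bind their hormone inside the cell and act as transcription factors, whereas the growth hormone receptor, encoded by Ghr, sits in the plasma membrane and signals through the kinase JAK2 and STAT5 proteins.

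The 12 arrays came from 12 female mice of C57BL/6 background that had been fed a high-protein diet over 2 months, 4 per genotype. Mutants had the genotype Mut -/- ;TgINS-Alb-Mut, heterozygotes were Mut +/- and wild-type mice were Mut +/+. Mut, now called Mmut, encodes the mitochondrial enzyme methylmalonyl-CoA mutase, whose loss gives methylmalonic acidemia. The study asked what underlies the kidney disease of this disorder, and took females since more of them lived through the diet. In the labels only the mutants carry the transgene, which as background is known to place Mut under the albumin promoter for expression in liver. Effects of the transgene and of the lost enzyme therefore cannot be told apart, and ages were not given in the sources used here. The labels do not say whether any mice were littermates, and the p-values treat the mice as independent. They weigh a difference between groups against the spread between mice within groups. Levels are log2 units of the authors' RMA signal, in which a difference of 1 is 2-fold, and levels of different genes are not compared because each probe set has its own scale.

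Array medians lay between 7.17 and 7.23. Mmut itself was lowest in mutants, at 8.20 to 8.47, against 9.87 to 9.97 in heterozygotes and 10.47 to 10.60 in wild-type mice. Mutant replicate 3 stood apart from the other arrays in a way that bears on hormone genes. All 7 of 7 adrenal cortex markers were higher on it than on any other array, by 4.09-fold for the aldosterone synthase gene Cyp11b2 up to 67.4-fold for the 11-beta-hydroxylase gene Cyp11b1. The mean of these markers was 10.20 on that array and 5.50 to 5.83 on the other 11 arrays. The tissue is labelled whole kidney, on which the adrenal gland lies. The part of these transcripts in the results was not tested, and the tests of named genes and the list counts for mutants are therefore also given without mutant replicate 3.

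**Figure D1:**
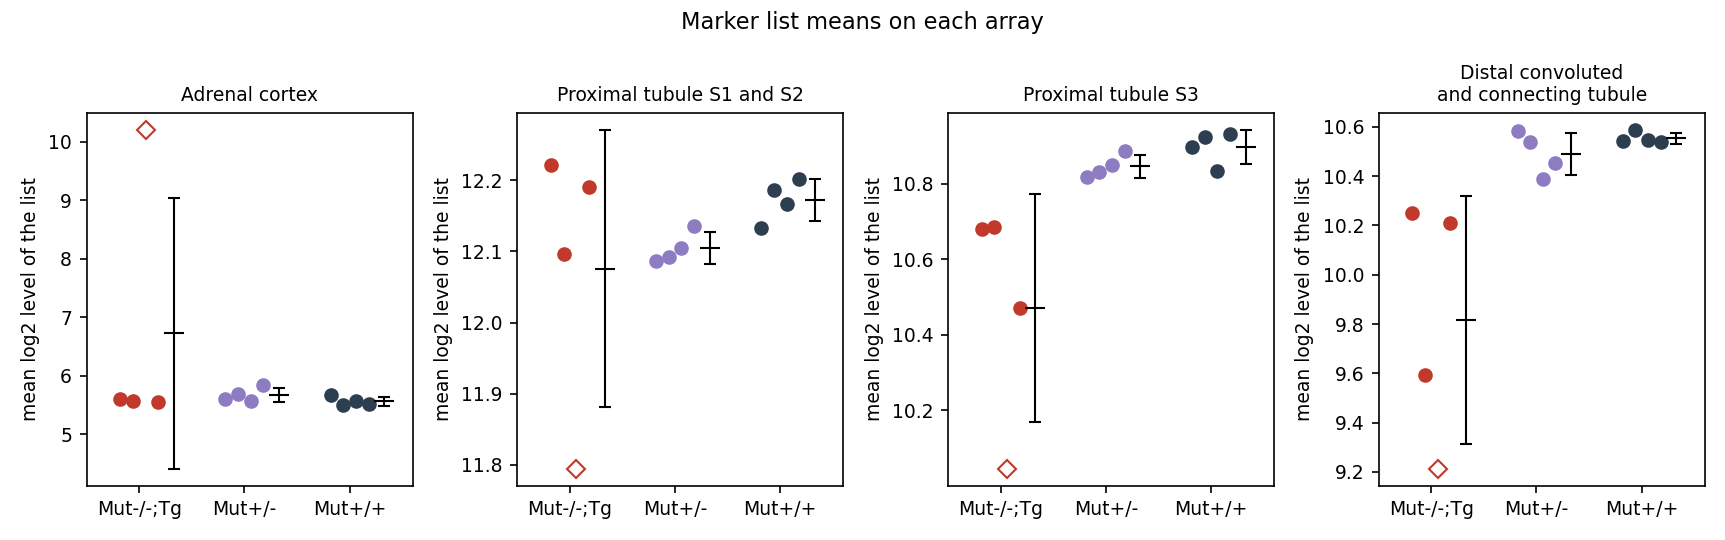
Mean log2 level of 4 marker lists on each array, with mutants (Mut-/-;Tg), heterozygotes (Mut+/-) and wild-type mice (Mut+/+) from left to right. Points are arrays, the open diamond is mutant replicate 3, and bars are the mean and SD of 4 arrays. The adrenal cortex markers stand at 10.20 on mutant replicate 3 and at 5.50 to 5.83 on the other 11 arrays.

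The promoter of Kap is shown because this gene had the widest range of the set over the arrays. The 250 bases before its start (RefSeq, GRCm38.p6, chr6:133853668-133853917, minus strand) are given 5′ to 3′, with a TATA box (TATAAA) in capitals.
Kap: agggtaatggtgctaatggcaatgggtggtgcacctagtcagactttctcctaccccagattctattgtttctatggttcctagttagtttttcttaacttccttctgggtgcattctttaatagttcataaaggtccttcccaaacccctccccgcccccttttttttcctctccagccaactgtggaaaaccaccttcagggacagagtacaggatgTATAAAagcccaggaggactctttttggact
The TATA box begins 31 bases before the start.

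Promoters in the RefSeq table were found for 5 of the 6 measured genes, 7 promoters in all, each spanning 250 bases before to 50 bases after a start. They were searched on both strands for AGAACA, the hexamer shared by androgen, glucocorticoid and mineralocorticoid receptors. Also searched were AGGTCA, the hexamer of oestrogen and several other receptors, and TTCNNNGAA, a STAT site. AGAACA was present in 0 of the 7, against 18.97% of all 32851 promoters of the table. AGGTCA was likewise present in 0 of the 7, against 16.26%. TTCNNNGAA was present in 1 of the 7, against 8.298%, and TATAAA, added after the other results were seen, was present in 2 of the 7, against 13.62%. The 1 promoter with TTCNNNGAA belonged to Esr1, and its 250 bases before the start (RefSeq, GRCm38.p6, chr10:4709908-4710157, plus strand) are shown with that match in capitals.
Esr1: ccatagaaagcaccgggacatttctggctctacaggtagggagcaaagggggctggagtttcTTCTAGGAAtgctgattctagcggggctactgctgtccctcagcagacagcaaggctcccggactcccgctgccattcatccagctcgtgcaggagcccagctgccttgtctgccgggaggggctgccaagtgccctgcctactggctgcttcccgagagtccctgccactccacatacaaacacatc
These matches describe the letters of the windows and not binding.

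Kap was lower on every mutant array than on any control array. Its level was 11.44, 9.87, 9.75 and 11.42 in mutant replicates 1 to 4, against 13.27, 12.93, 12.98 and 13.22 in heterozygotes and 13.27, 13.23, 13.31 and 13.26 in wild-type mice. Mutant replicates 1 and 4 lay well above replicates 2 and 3, while the wild-type arrays lay within 0.08 of each other. The mean was 10.62 ± 0.94 in mutants, 13.10 ± 0.17 in heterozygotes and 13.27 ± 0.03 in wild-type mice (SD, n = 4 each). The mutant mean was thus 6.29-fold below wild type (log2 difference -2.65) and 5.58-fold below heterozygotes (log2 difference -2.48). With mutant replicate 3 left out it was 5.14-fold and 4.57-fold below them. These differences chose the gene and are given as a description without a test. In whole kidney, fewer cells of a type and less transcript per cell cannot be told apart, here and for the genes below.

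**Figure D2:**
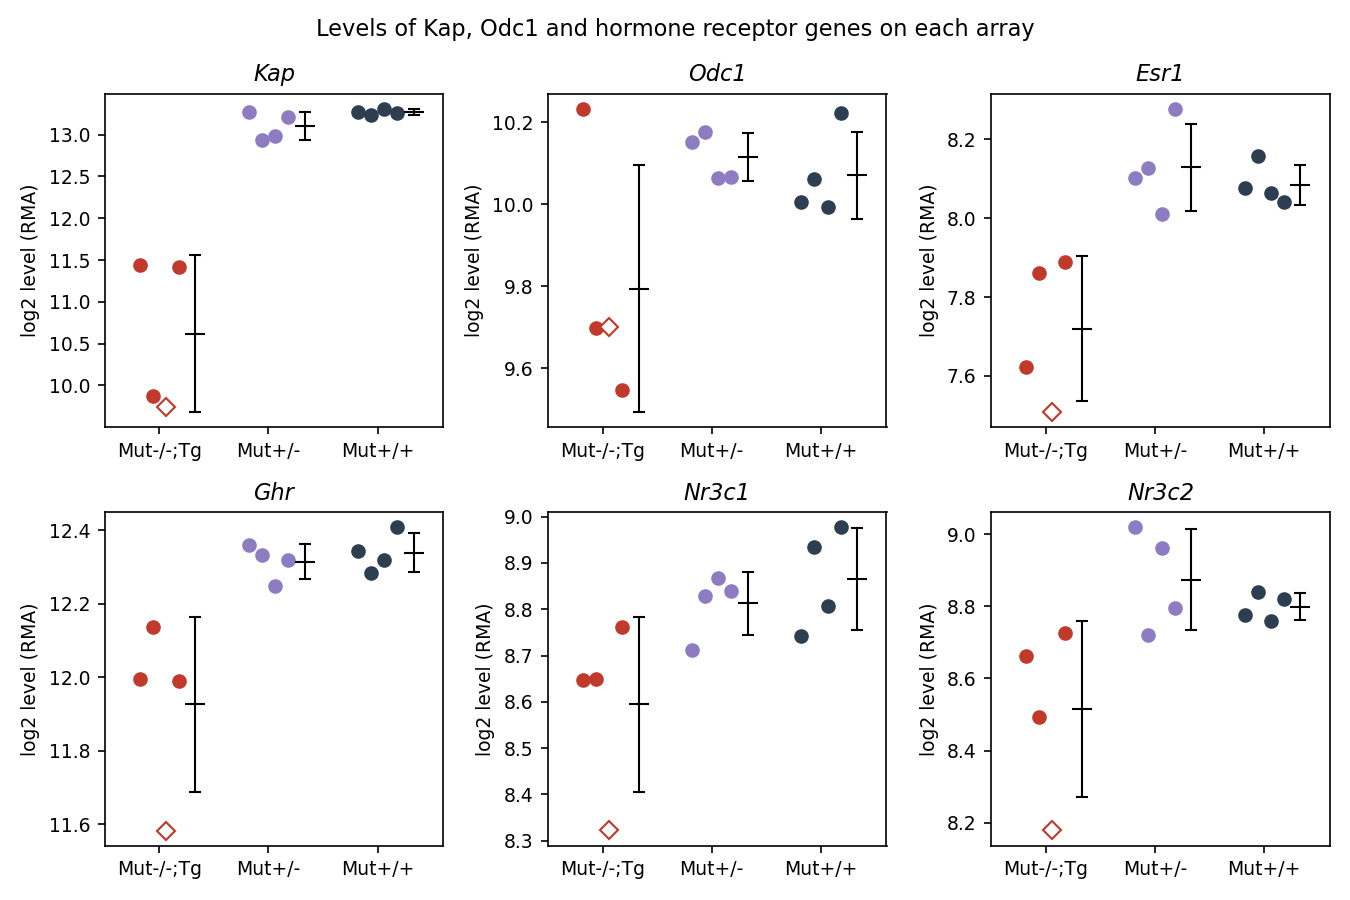
Log2 level (RMA signal) of the 6 measured genes on each array, with mutants (Mut-/-;Tg), heterozygotes (Mut+/-) and wild-type mice (Mut+/+) from left to right in each panel and a separate scale per gene. Points are arrays, the open diamond is mutant replicate 3, and bars are the mean and SD of 4 arrays. Kap, Esr1 and Ghr have all 4 mutants below all 8 control arrays, whereas Odc1 has mutant replicate 1 at 10.23, above every control array.

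No difference in Kap was detected between heterozygous and wild-type kidneys. Heterozygotes were 1.13-fold below wild type (log2 difference -0.17, 95% interval -0.86 to 0.52, adjusted p = 0.883 by limma over all genes), and 3 of the 4 heterozygotes lay below every wild-type array. The spread in this fit is shared with the mutants, which vary most, so the interval is wide. With only these 2 groups in the fit the adjusted p was 0.31.

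Odc1, the polyamine enzyme gene, was lower in 3 of the 4 mutants but not in the fourth. Its level was 10.23, 9.70, 9.70 and 9.55 in mutants, against 10.15, 10.18, 10.06 and 10.07 in heterozygotes and 10.01, 10.06, 9.99 and 10.22 in wild-type mice. Mutant replicate 1 was the highest of all 12 arrays, and the other 3 mutants were the lowest. The mean difference was -0.28 from wild type (95% interval -0.52 to -0.03, adjusted p = 0.155 by limma) and -0.32 from heterozygotes (95% interval -0.57 to -0.07, adjusted p = 0.176). Neither passed the threshold of an adjusted p under 0.05. The adjusted p values were 0.279 and 0.308 without mutant replicate 3, and without mutant replicate 1 both comparisons passed, with log2 differences of -0.42 and -0.47 (adjusted p = 0.00293 and 0.00434).

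A dimmer probe set of Odc1, with a mean of 9.68 over all arrays against 9.99 for the one used, held 9.73, 9.42, 9.38 and 9.28 in mutants. It held 9.87, 9.94, 9.73 and 9.68 in heterozygotes and 9.70, 9.80, 9.77 and 9.87 in wild-type mice. Here too mutant replicate 1 lay among the controls and the other 3 mutants below all of them. By that probe set, which was chosen as an alternative after seeing the data, Odc1 was 0.33 lower in mutants than in wild type on the log2 scale and passed (adjusted p = 0.0314), and 0.35 lower than in heterozygotes without passing (adjusted p = 0.0571). The gene's call against wild type therefore differed between its 2 probe sets.

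Esr1, which encodes oestrogen receptor alpha, was lower in mutants than in both control genotypes. Its level was 7.62, 7.86, 7.51 and 7.89 in mutants, against 8.10, 8.13, 8.01 and 8.28 in heterozygotes and 8.08, 8.16, 8.06 and 8.04 in wild-type mice. The 4 mutants lay below all 8 controls. The fall was 1.29-fold from wild type (log2 difference -0.36, SE 0.08, adjusted p = 0.0149 by limma) and 1.33-fold from heterozygotes (log2 difference -0.41, SE 0.08, adjusted p = 0.0198). Both calls remained without mutant replicate 3, at 1.23-fold and 1.26-fold (adjusted p = 0.0311 and 0.0357). The call against wild type ended without wild type replicate 2 (adjusted p = 0.0503), and that against heterozygotes ended without heterozygote replicate 1, 2 or 4, with adjusted p up to 0.0706.

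Ghr, the growth hormone receptor gene, also fell in mutants. Its level was 11.995, 12.14, 11.58 and 11.99 in mutants, against 12.36, 12.33, 12.25 and 12.32 in heterozygotes and 12.34, 12.28, 12.32 and 12.41 in wild-type mice. All mutants lay below all controls, and mutant replicate 3 was lowest. The fall was 1.33-fold from wild type (log2 difference -0.41, SE 0.09, adjusted p = 0.0131 by limma) and 1.31-fold from heterozygotes (log2 difference -0.39, SE 0.09, adjusted p = 0.0411). It was smaller without mutant replicate 3 but passed in both, at 1.23-fold from wild type (adjusted p = 0.00634) and 1.21-fold from heterozygotes (adjusted p = 0.0229). The call against wild type held without each array in turn, with adjusted p up to 0.0461. The call against heterozygotes was lost without mutant replicate 1 or any of the 8 control arrays (highest adjusted p = 0.111).

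Nr3c1, the glucocorticoid receptor gene, did not pass the test in any comparison. Its level was 8.65, 8.65, 8.32 and 8.76 in mutants, against 8.71, 8.83, 8.87 and 8.84 in heterozygotes and 8.74, 8.93, 8.81 and 8.98 in wild-type mice. Mutant replicate 4 overlapped both control groups, and mutant replicate 3 was far the lowest array. The log2 difference was -0.27 from wild type (95% interval -0.45 to -0.09, adjusted p = 0.0633 by limma) and -0.22 from heterozygotes (95% interval -0.40 to -0.03, adjusted p = 0.219). With mutant replicate 3 left out these were -0.18 and -0.13 (adjusted p = 0.124 and 0.421). Against wild type the gene passed without mutant replicate 4 (adjusted p = 0.0326).

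Nr3c2, the mineralocorticoid receptor gene, through which aldosterone acts on the distal nephron, did not pass either. Its level was 8.66, 8.49, 8.18 and 8.73 in mutants, against 9.02, 8.72, 8.96 and 8.79 in heterozygotes and 8.78, 8.84, 8.76 and 8.82 in wild-type mice. All mutants lay below all wild-type arrays, but mutant replicate 4 lay just above the lowest heterozygote. The log2 difference was -0.28 from wild type (95% interval -0.50 to -0.06, adjusted p = 0.102 by limma) and -0.36 from heterozygotes (95% interval -0.58 to -0.14, adjusted p = 0.0867). The differences without mutant replicate 3 were -0.17 (adjusted p = 0.213) and -0.25 (adjusted p = 0.135). Without mutant replicate 4 both passed, at -0.35 and -0.43 (adjusted p = 0.0464 and 0.0427).

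Of the 5 genes tested besides Kap, 2 fell in mutants against wild type and 0 rose, where 9.66% of all genes were called, 6.69% lower and 2.96% higher. Against heterozygotes the same 2 genes, Esr1 and Ghr, fell, where 2.54% of all genes were called, 1.46% lower and 1.07% higher. Both comparisons use the same mutant arrays. All 5 genes had negative differences with an unadjusted p under 0.05 in both, where 24.4% of all genes had such a p against wild type and 15.4% against heterozygotes, with a median log2 difference of -0.28 from wild type and -0.36 from heterozygotes. Over all genes these medians were 0.00 and -0.01. With mutant replicate 3 left out, 2 of the 5 fell in each comparison. In that fit 7.79% of all genes were called against wild type, 5.27% lower, and 2.20% against heterozygotes, 1.14% lower. An unadjusted p under 0.05 was then found in 4 of 5, against 21.4% and 14.1% of all genes, and the medians of the 5 were -0.24 and -0.27. Besides Kap, mutants did not overlap wild-type arrays in 3 of the 5 genes, against 14.7% of all genes, and did not overlap heterozygotes in 2, against 9.69%. Since the genes were listed with results known, these counts describe the set.

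In heterozygotes against wild type, limma called 0 of the 6 genes at an adjusted p under 0.05 where 0.135% of all genes were called, and 0 of the 6 at an unadjusted p under 0.05, where 11.3% of all genes had one. Groups overlapped in all 6, against 8.44% of genes without overlap. The log2 differences ran from -0.17 for Kap to 0.07 for Nr3c2 (95% interval -0.15 to 0.30), with Odc1 at 0.04 (95% interval -0.20 to 0.29), Esr1 at 0.04 (95% interval -0.13 to 0.22), Ghr at -0.02 (95% interval -0.22 to 0.17) and Nr3c1 at -0.05 (95% interval -0.24 to 0.13). In order of level, mutants came last for every gene, and the order of heterozygotes and wild type stayed within their spread.

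**Figure D3:**
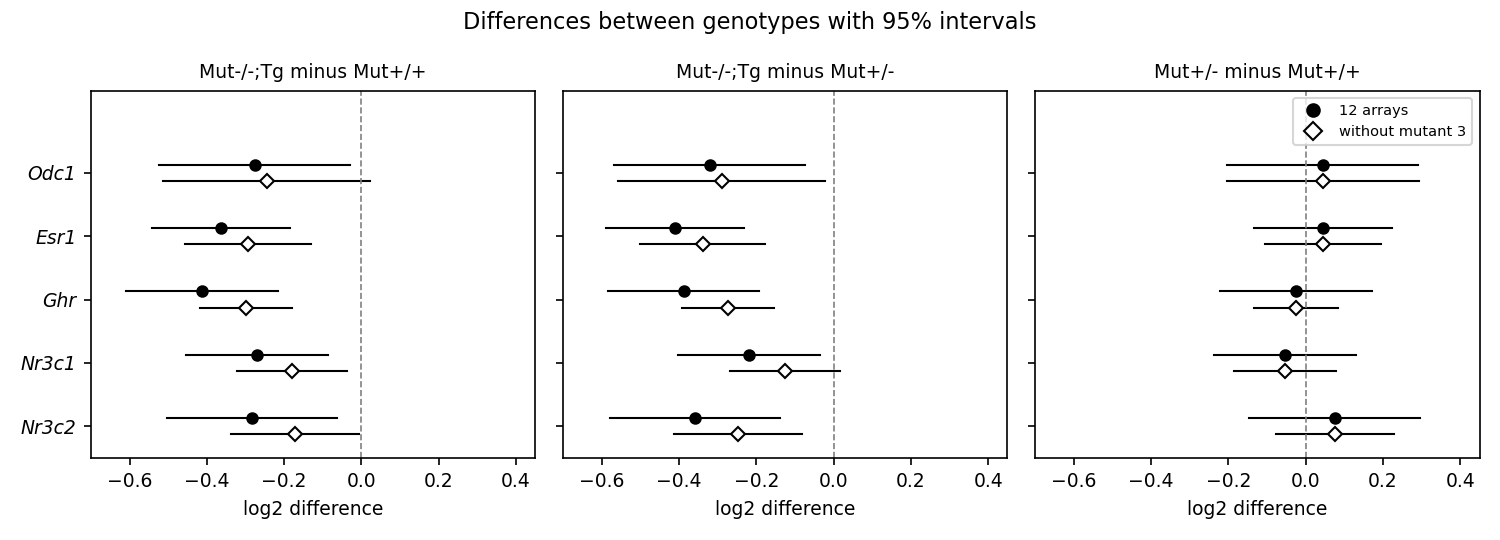
Log2 difference between genotypes for the 5 genes tested besides Kap, with 95% intervals from limma, in 3 panels for mutant minus wild type, mutant minus heterozygote and heterozygote minus wild type. Filled points use all 12 arrays and open diamonds leave out mutant replicate 3. Differences from both controls are negative for all 5 genes, and those between heterozygotes and wild type lie near 0.

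The mutants did not rank alike from gene to gene. Mutant replicates 2 and 3 were lowest for Kap, but replicate 2 was the highest mutant for Ghr and the second highest for Esr1. Replicate 1 was the highest mutant for both Kap and Odc1. Replicate 3 was the lowest mutant for Kap, Esr1, Ghr, Nr3c1 and Nr3c2, but not for Odc1.

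The genes whose profile lay nearest to that of Kap were sought among 14529 named genes with a mean level of at least 6, by the root mean square difference between profiles centred on each gene's own mean. On this scale a gene with no variation would differ from Kap by 1.30. Nearest was Igf2, an insulin-like growth factor gene, at 0.27. It held 9.97, 7.85, 7.95 and 10.08 in mutants, against 11.40, 11.44, 11.17 and 11.17 in heterozygotes and 11.13, 11.30, 11.11 and 11.20 in wild-type mice, so that mutant replicates 2 and 3 were again the lowest by a wide margin. Next came Dio1, the gene of a deiodinase that activates thyroid hormone, at 0.49, Mmut at 0.57, the albumin gene Alb at 0.61 and the transthyretin gene Ttr at 0.62. The low level of Mmut in mutants follows from the genotype, and why its profile lay near that of Kap was not tested. Without mutant replicate 3 the same 5 genes were nearest over 11 arrays, with Igf2 first at 0.28. The other 5 genes of the set varied by an SD of at most 0.24 over the arrays and were not matched.

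**Figure D4:**
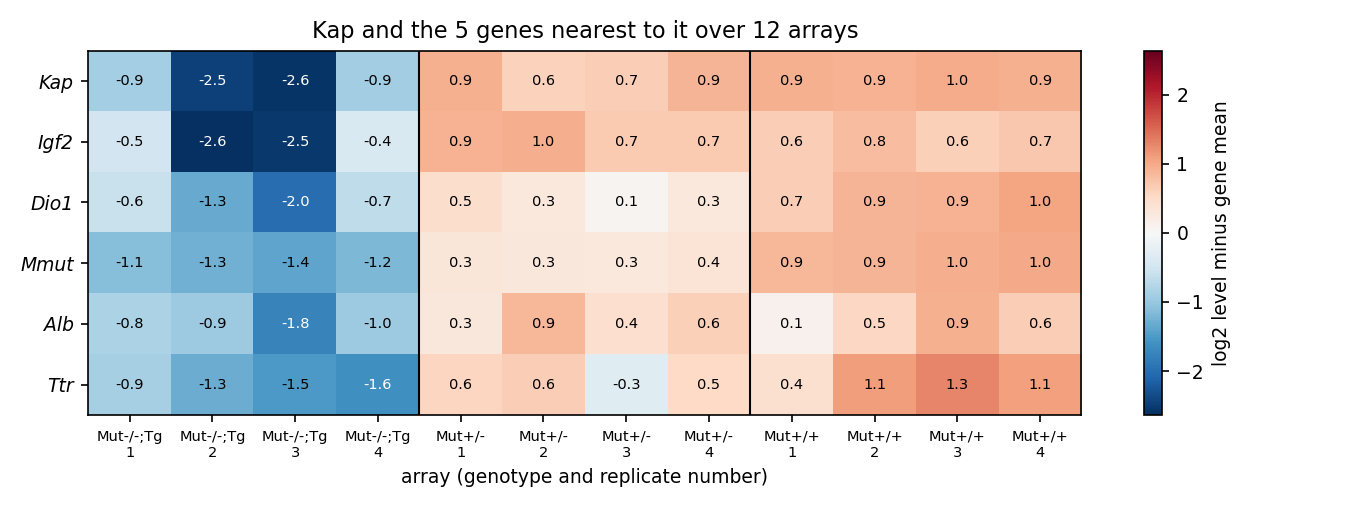
Log2 level of Kap and of the 5 genes nearest to it, each minus its own mean over the 12 arrays, with mutants on the left, heterozygotes in the middle and wild-type mice on the right. Colour and printed values give the same quantity. Kap and Igf2 share the deep falls of mutant replicates 2 and 3, whereas Mmut is nearly even across the 4 mutants.

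Other genes of the hormone pathways were read from 9 lists of known roles. In mutants against wild type 9.66% of all genes were called, 2.96% higher and 6.69% lower, and the counts per list stand beside these shares. Without mutant replicate 3 the shares were 7.79%, 2.52% and 5.27%. Of 13 genes known from mouse kidney as androgen-responsive or higher in males 4 rose in mutants against wild type and 0 fell, with a median log2 difference of 0.03 (0.16 without mutant replicate 3). Cyp4a12b and Cyp4a12a, close paralogues among the fatty acid hydroxylase genes whose signals the array may mix, were 7.46-fold and 6.2-fold higher (adjusted p = 3.16e-05 and 3.18e-05 by limma), and 7.1-fold and 5.8-fold higher without mutant replicate 3 (adjusted p = 7.72e-05 for both). Cyp4a12b held 9.65, 10.10, 9.88 and 9.07 in mutants, against 7.08, 7.01, 7.89 and 7.86 in heterozygotes and 6.89, 6.96, 6.32 and 6.94 in wild-type mice. The mutants were clear of both control groups, and mutant replicates 2 and 3, lowest in Kap, were the highest here. Cyp2j13, of another monooxygenase family, was 1.38-fold higher (adjusted p = 0.00152) and 1.39-fold higher without mutant replicate 3 (adjusted p = 0.00309). The alcohol dehydrogenase gene Adh1 was 1.46-fold higher (adjusted p = 0.0334). It held 11.92, 12.01, 12.78 and 11.998 in mutants, against 12.06, 11.85, 11.86 and 12.11 in heterozygotes and 11.68, 11.66, 11.60 and 11.56 in wild-type mice. Only mutant replicate 3 was above the heterozygotes, and all 8 arrays of mutants and heterozygotes were above wild type. With that array left out, Adh1 was 1.27-fold higher in mutants than in wild type (adjusted p = 0.00966), 1.27-fold higher in heterozygotes than in wild type (adjusted p = 0.0481, against 0.403 with all arrays), and differed by 0.01 on the log2 scale between mutants and heterozygotes (adjusted p = 0.984). Adh1 lost its call when any of the 4 wild-type arrays was left out (highest adjusted p = 0.0945). The beta-glucuronidase gene Gusb, a classical androgen target, had a log2 difference of -0.11 (adjusted p = 0.219, and 0.324 without mutant replicate 3). Without mutant replicate 3 there were 5 risers, Slc7a13, an S3 amino acid transporter gene, joining them at 1.59-fold (adjusted p = 0.0303). It held 6.95, 6.60, 5.90 and 5.95 in mutants, against 6.21, 6.16, 6.09 and 6.00 in heterozygotes and 5.81, 5.70, 6.03 and 5.79 in wild-type mice. Only mutant replicates 1 and 2 were above the controls, and the levels lay near 6, the limit used for dim genes.

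Of 5 genes known to be higher in kidneys of female mice 2 fell and 1 rose in mutants against wild type, where 9.66% of all genes were called. The median log2 difference of the list was -0.42 (-0.15 without mutant replicate 3). Akr1c18, which encodes a progesterone-degrading dehydrogenase, was 29.3-fold lower (adjusted p = 1.57e-05 by limma) and the organic anion transporter gene Slc22a7 2.87-fold lower (adjusted p = 0.00973). Akr1c18 held 6.36, 6.60, 5.73 and 7.28 in mutants, against 11.34, 9.82, 9.34 and 10.53 in heterozygotes and 11.77, 11.23, 11.04 and 11.44 in wild-type mice. The mutants lay below all controls, replicate 3 lowest. Cyp4a14, a fatty acid hydroxylase gene, was 1.68-fold higher (adjusted p = 0.00115). These 3 were also called against wild type without mutant replicate 3, where Slc22a7 was 2.16-fold and Akr1c18 24.6-fold lower and Cyp4a14 1.57-fold higher. Against heterozygotes in that fit Akr1c18 and Cyp4a14 passed. Slc22a7 was 1.61-fold lower there and did not pass (adjusted p = 0.0741 by limma).

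**Figure D5:**
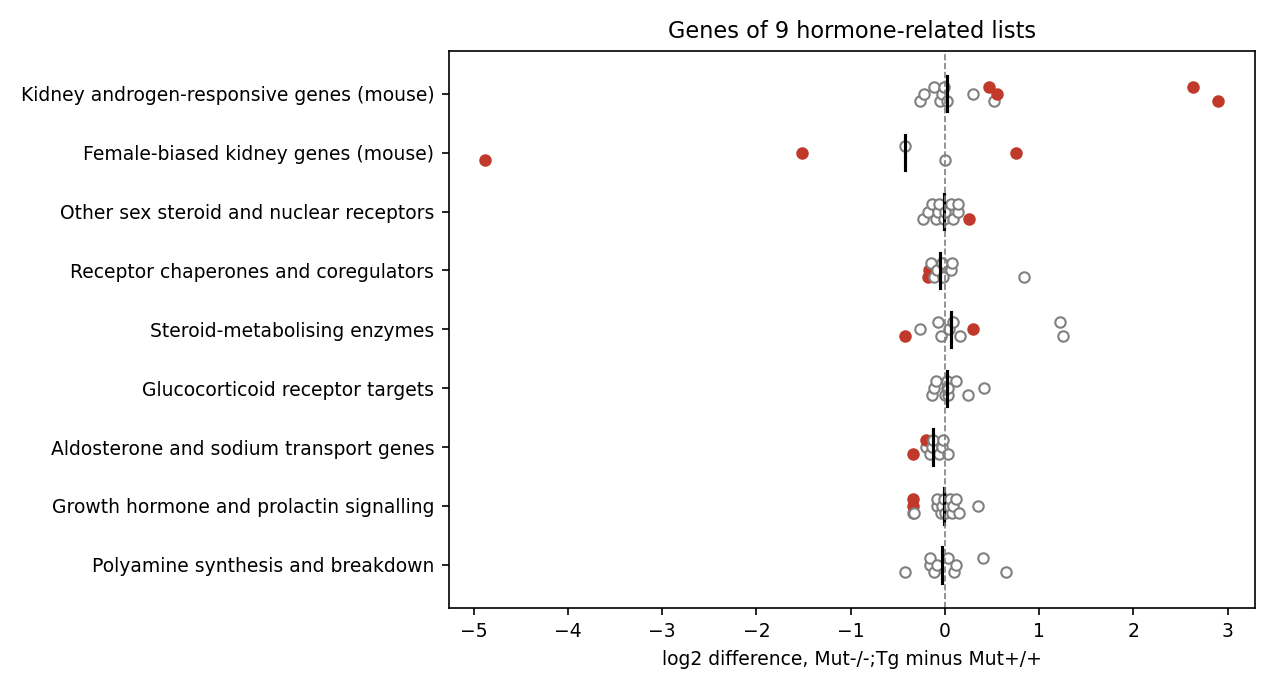
Log2 difference between mutants and wild-type mice (horizontal axis) for each measured gene of 9 hormone-related lists (rows). Red points passed an adjusted p under 0.05, open points did not, and black bars are list medians. The widest differences are those of Akr1c18 at -4.87 and Cyp4a12b at 2.90, and most receptor, target and signalling genes lie near 0.

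Among growth hormone and prolactin signalling genes 2 of 17 fell in mutants against wild type and 0 rose, a count near the 9.66% of all genes called. The median log2 difference of the list was -0.01 with or without mutant replicate 3. Jak2, the kinase that the growth hormone receptor activates, was 1.26-fold lower (log2 difference -0.33, SE 0.06, adjusted p = 0.00326 by limma). It held 8.52, 8.51, 8.46 and 8.55 in mutants, against 8.83, 8.67, 8.79 and 8.90 in heterozygotes and 8.75, 8.93, 8.84 and 8.86 in wild-type mice. The mutants lay below all controls and close together, and Jak2 also fell against heterozygotes (1.22-fold, adjusted p = 0.0191, and 0.0413 without mutant replicate 3). Irs1, an adaptor of the insulin and insulin-like growth factor receptors, was 1.26-fold lower than in wild type (adjusted p = 0.00522). It held 8.20, 8.16, 8.16 and 8.17 in mutants. Heterozygotes held 8.27, 8.12, 8.42 and 8.24, and wild-type mice 8.51, 8.61, 8.45 and 8.44. The mutants thus overlapped heterozygotes and not wild type. Without mutant replicate 3 the log2 difference of Irs1 from heterozygotes was -0.09 (adjusted p = 0.625 by limma). The direct growth hormone target Socs2, an inhibitor of this pathway, had a log2 difference of 0.00 (adjusted p = 0.999), and the related target Cish one of 0.05 (adjusted p = 0.89). Without mutant replicate 3 these were -0.16 (SE 0.30) and -0.01 (SE 0.18), with adjusted p = 0.827 and 0.981 by limma. With such errors the lack of a call does not show that Socs2 and Cish were unchanged. Both called genes passed without mutant replicate 3 (adjusted p = 0.00832 for Jak2 and 0.0113 for Irs1).

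Of 11 glucocorticoid receptor targets limma called 0 in mutants against wild type, and 1 had an unadjusted p under 0.05, where 24.4% of all genes had one. Without mutant replicate 3 there were 0 calls and 2 such genes. The gene with all arrays was Tsc22d3, which encodes the leucine zipper protein GILZ, at a log2 difference of 0.24 (adjusted p = 0.0666, and 0.128 without mutant replicate 3). Among 10 aldosterone and sodium transport genes 2 fell and 0 rose, where 6.69% of all genes were called lower, with a median of -0.13 (-0.09 without mutant replicate 3). Slc12a3, the thiazide-sensitive cotransporter gene, was 1.27-fold lower (adjusted p = 0.00878). Nedd4l, which encodes a ubiquitin ligase acting on the sodium channel, was 1.15-fold lower (adjusted p = 0.0457), a call lost when any array but mutant replicate 2, heterozygote replicate 2 or wild type replicate 1 was left out (highest adjusted p = 0.14). Without mutant replicate 3 Slc12a3 alone passed (adjusted p = 0.0169).

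In mutants against wild type, where 9.66% of all genes were called, 1 of 13 other nuclear and sex steroid receptor genes rose and 0 fell. This was Rara, the retinoic acid receptor alpha gene, 1.19-fold higher (adjusted p = 0.0221, and adjusted p = 0.0335 without mutant replicate 3). The call was lost without wild type replicate 1 or 3 (adjusted p = 0.054 and 0.0623). Thrb, a thyroid hormone receptor gene, fell against heterozygotes (1.23-fold, adjusted p = 0.0153, and 0.0272 without mutant replicate 3) but did not pass against wild type (log2 difference -0.18, adjusted p = 0.0624, and 0.0946 without that array). The oestrogen receptor beta gene Esr2 had a log2 difference of 0.13 (adjusted p = 0.23, and 0.431 without mutant replicate 3). Of 10 receptor chaperones and coregulators, with 6.69% of all genes called lower, 2 fell and 0 rose. They were the steroid receptor coactivator genes Ncoa3 and Ncoa1, 1.14-fold and 1.13-fold lower (adjusted p = 0.0267 and 0.0496), and neither passed without mutant replicate 3 (adjusted p = 0.0683 and 0.12). Ncoa3 also lost its call without wild type replicate 2 or 4 (highest adjusted p = 0.0789). Ncoa1 lost it when any array but mutant replicate 1 or wild type replicate 3 was left out (highest adjusted p = 0.142).

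Steroid-metabolising enzyme genes had 1 rise and 1 fall among 10, where 9.66% of all genes were called. This list includes the adrenal cortex markers Cyp11a1 and Star. On mutant replicate 3 they stood 30.9-fold and 33.8-fold above the highest other array. Neither was called, and with such a spread among mutants the lack of a call says little. Hsd17b2, whose enzyme inactivates oestradiol and testosterone, was 1.34-fold lower in mutants than in wild type (adjusted p = 0.0121) and passed without mutant replicate 3 (adjusted p = 0.0141). Its level was 7.31, 7.39, 7.37 and 7.01 in mutants, against 7.09, 7.32, 7.25 and 7.15 in heterozygotes and 7.57, 7.59, 7.72 and 7.91 in wild-type mice, so the mutants overlapped heterozygotes and not wild type. Heterozygotes were 1.41-fold below wild type in Hsd17b2, which did not pass with all arrays (adjusted p = 0.0703) and passed without mutant replicate 3 (adjusted p = 0.0481). Hsd17b11, another hydroxysteroid dehydrogenase gene, was 1.23-fold higher (adjusted p = 0.0421), but did not pass without mutant replicate 3 (adjusted p = 0.0821), nor when any other array but mutant replicate 4 or heterozygote replicate 2 was left out (highest adjusted p = 0.0934). Of 10 polyamine genes besides Odc1 limma called 0, and 3 had an unadjusted p under 0.05, near the 24.4% of all genes. The lowest p was that of Mtap, which salvages the methylthioadenosine left by polyamine synthesis, at a log2 difference of -0.16 (adjusted p = 0.11, and 0.198 without mutant replicate 3). Without mutant replicate 3, Arg2, the mitochondrial arginase gene that supplies ornithine, was 1.54-fold lower (adjusted p = 0.00818), against 1.34-fold lower and no call with that array (adjusted p = 0.147).

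Markers of tubule segments also differed between mutants and wild-type mice. Over all genes 9.66% were called in this comparison, 6.69% lower and 2.96% higher. Without mutant replicate 3 the shares were 7.79%, 5.27% and 2.52%. Markers of the S3 segment, which makes Kap, fell in 7 of 9 cases and rose in 0 in mutants against wild type, and fell in 5 and rose in 1 without mutant replicate 3. That riser was Slc7a13, which was above the controls in mutant replicates 1 and 2 alone. The mean level of the S3 markers was 10.68, 10.69, 10.05 and 10.47 in mutants, against 10.82 to 10.89 in heterozygotes and 10.83 to 10.93 in wild-type mice. Mutant replicates 1 and 2 thus had nearly the same S3 mean. S1 and S2 markers fell in 2 of 9 cases and rose in 0, with or without mutant replicate 3, and their means overlapped, at 11.79 to 12.22 in mutants, 12.09 to 12.14 in heterozygotes and 12.13 to 12.20 in wild-type mice. Of 5 markers of the distal convoluted and connecting tubule 4 fell and 0 rose (3 and 0 without mutant replicate 3), with means of 10.25, 9.59, 9.21 and 10.21 in mutants, against 10.39 to 10.58 in heterozygotes and 10.54 to 10.59 in wild-type mice. Here mutant replicates 2 and 3 were the lowest, as for Kap. Markers of collecting duct principal cells, in which Nr3c2 acts, rose in 1 of 5 cases and fell in 0, with a median log2 difference of 0.18 (0.20 without mutant replicate 3). The riser was Aqp3, a water channel gene, at 9.67, 9.56, 9.47 and 9.58 in mutants, against 9.39, 9.34, 9.31 and 9.26 in heterozygotes and 9.31, 9.29, 9.17 and 9.31 in wild-type mice. All mutants lay above all controls, 1.23-fold above wild type (adjusted p = 0.00505) and 1.26-fold without mutant replicate 3 (adjusted p = 0.00368). Intercalated cell markers fell in 2 of 5 cases and rose in 0 (1 and 1 without that array). Endothelial markers fell in 3 of 6 cases (2 without that array), podocyte markers in 2 of 4 and thick ascending limb markers in 0 of 5, both also without it. Macrophage markers rose in 2 of 6 cases and fell in 1 (1 and 1 without it). Fibroblast and smooth muscle markers fell in 2 of 6 cases and rose in 0, with or without mutant replicate 3. Calls were 0 of 6 for lymphocyte markers and 0 of 4 for adipocyte markers, also without that array. The adipocyte markers had a median log2 difference of -0.30 (-0.18 without mutant replicate 3). Slc22a7 stands in both the S3 and the female list and Slc7a13 in both the S3 and the androgen list, and Slc12a3 is also a distal marker. The part of these shifts in the levels of Kap and the receptor genes was not tested.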

How the data were processed

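RNA of whole kidney was measured on Affymetrix gene arrays, with groups taken from sample titles. Per the submitters' processing notes, the deposited log2 values come from RMA in Expression Console 1.2.1, a method that corrects background, equalises arrays and compresses differences near background. Of 35552 probe sets, 21785 carried 1 gene symbol, and each of 19934 genes was read from its brightest probe set. No genome build was used for the levels. All 12 arrays in 3 groups were fitted with limma 3.58.1 (R 4.3.3), with Benjamini-Hochberg adjustment over all genes and calls at an adjusted p under 0.05. The fit was tested on simulated data with independent noise and no foreign tissue on any array. High recovery was required there only for shifts larger than those of Odc1 and the receptor genes. The number of arrays limits the precision.

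The genes and lists were chosen with earlier results of these data known. Named were the listed genes, the 5 genes nearest to Kap, up to 4 called genes per list with the largest differences (or that with the smallest p), and Mmut. Gusb, Socs2, Cish, Esr2, Thrb, Arg2, Aqp3 and Slc7a13 were singled out after their values were seen. Alternatives were a block for the replicate number, leaving out each array, a filter on dim genes, testing probe sets singly or averaged by gene, quantile normalisation, median centring, fitting only the groups compared, array weights, and a trended and robust prior. Results for the lists and for the genes nearest to Kap without mutant replicate 3, and the dimmer Odc1 probe set, were alternatives chosen after seeing the data. Plots used matplotlib 3.10.9.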

Additional observations from a re-analysis of the deposited data

Results flagged for a closer look

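The mean of the adrenal cortex markers was 10.20 on mutant replicate 3, far from the next highest mutant at 5.60. The mean of the ovary markers was 6.60 on the same array, slightly apart from the next mutant at 6.46. Of these markers mainly Inha was higher there, at 8.12 against 7.64, 7.53 and 7.68 in the other mutants. Fshr, Zp3 and Gdf9 lay within the range of the other arrays, and Amh was 6.37 against up to 6.33 on those. The adrenal and ovary marker means of mutants were 2 of 60 groups of 4 arrays checked for an array that stands far from its group, where chance alone gives about 1 in 20. Of the 18 groups that concern Kap, Odc1 and the receptor genes, 0 had such an array.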

How the results depend on the processing

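The direction of all differences between mutants and controls held for the 6 genes under all 22 alternatives. The difference of Esr1 between heterozygotes and wild type reversed to -0.0046 (log2) without heterozygote replicate 4 and reached 0.0845 without heterozygote replicate 3. Against wild type, between 1 and 4 of the 5 tested genes were called when 1 array was left out. Against heterozygotes, between 0 and 3 were called when 1 array was left out, 1 after array medians were subtracted and 0 with only the 2 groups compared in the fit, which has fewer arrays. Calls over all genes were 1925, 506 and 27 with all arrays, and ranged from 1019 to 1928 for mutant against wild type, from 229 to 592 for mutant against heterozygote and from 5 to 67 for heterozygote against wild type when 1 array was left out. The counts fell to 1125 and 1019 against wild type without wild type replicate 2 or 4, and to 235, 308, 248 and 229 against heterozygotes without heterozygote replicate 1, 2, 3 or 4. Heterozygotes against wild type had 55 calls without mutant replicate 3 and 67 without wild type replicate 1, but 8, 12 and 8 without heterozygote replicate 1, 2 or 4 and 7, 6 and 5 without wild type replicate 2, 3 or 4. With only the 2 groups compared, the 3 comparisons had 1154, 191 and 78 calls. Heterozygote against wild type had 7 calls with the replicate number as a block, 163 with array weights and 42 with the trended and robust prior, where the cause was not tested. Deviations of arrays with the same number correlated between -0.239 and 0.168 across genes, so no pairing by number was seen. Such correlations, without a reference range, cannot exclude a shared batch or litter. Nr3c1 passed against wild type with the trended and robust prior (adjusted p = 0.0458). Depth has no counterpart on arrays, and 4 arrays per group limit what can be detected.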
